A study of Mus musculus with 14 samples.

Results

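Cells make cholesterol, sense how much they hold, take it up and export it with a common set of genes, and the RNA of 31 such genes was followed here in mouse blood progenitors with and without Tet2. Of these, 28 had a probe set of their own and are among the 18194 genes tested. The other 3 (Nr1h2, Soat1 and Acat2) were not measured here. A gene with several probe sets was represented by the one with the highest mean over all 14 arrays. By role, 7 of the 28 act early in the pathway, from acetyl-CoA to squalene, 10 act late, from squalene to cholesterol, 5 sense sterols or switch on transcription, 3 serve uptake and transport, and 3 serve the LXR receptor and efflux.

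Total RNA was amplified, labelled with biotin and hybridised to Affymetrix mouse expression arrays, 2 per group in 7 groups. The wild type (WT) and knockout (KO) mice were littermates of B6/129 background, and the labels give them as Tet2+/+ Mx+ and as lacking Tet2, also Mx+. Mx+ is read here as the interferon-inducible Mx1-Cre transgene, which is active in many tissues besides blood, and pIC, an interferon inducer, was injected to delete Tet2. Both genotypes therefore carried the transgene. LSK cells (lineage-negative, c-Kit+, Sca1+), which hold the stem cells, and CMP (common myeloid progenitors) were sorted 4 weeks after deletion. GMP (granulocyte-monocyte progenitors) were sorted from both genotypes, with no time given for them. The seventh group, called replated cells here, was grown in colony culture from CD150+ sorted LSK cells of Tet2 KO genotype and replated 5 times. There was no replated WT group, so genotype, culture, repeated plating and the kind of cell that survives it cannot be told apart in the replated cells. The labels used here state neither ages nor pooling. They do not say whether paired arrays hold different mice or cultures, so p-values measure only the spread between these samples.

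Sterol synthesis starts from acetyl-CoA, runs through mevalonate and isoprenoid units to squalene, and closes squalene into the sterol ring that the late enzymes trim to cholesterol. When membranes of the endoplasmic reticulum run low in sterol, Scap carries the SREBP transcription factors to the Golgi, where they are cut, enter the nucleus and switch on the synthesis genes. Insig proteins hold Scap back when sterol is plentiful. When oxysterols build up, the LXR receptors instead switch on efflux pumps such as Abca1 and Abcg1. In blood progenitors, these pumps are known for restraining proliferation.

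Intensities are RMA values on a linear scale, and differences are given as log2 differences with the standard error (SE) of limma's moderated test. A gene passed where its Benjamini-Hochberg adjusted p over all 18194 genes was below 0.05. Probe sets for bacterial RNA reached 20.83 to 27.81 on each array, and this was taken as the floor. Of the 28 genes, Nr1h3 was the one near it, at or below it on 5 arrays. Pairs of arrays of a group had a Pearson correlation across probe sets of 0.9613 to 0.9929. Of the 2 Tet2 probe sets, the brighter read 454 to 2045 on WT arrays, 855 to 2376 on sorted KO arrays, and 1786 and 1823 on replated ones. The dimmer read 65.9 to 209 on WT and 17 to 175 on sorted KO arrays, with KO below WT without overlap in CMP and with overlap in LSK and GMP, and 780 and 796 on replated arrays. Where they lie relative to the deleted part was not analysed, and the genotype labels stay unchecked by them. Sex-linked genes split the genotypes: Xist, expressed from the inactive X chromosome, read 4980 to 6634 on the 6 sorted KO arrays and 18.4 to 29.7 elsewhere. The Y-linked genes Eif2s3y, Kdm5d and Uty were at or below the floor on every sorted KO array and above it on the WT and replated arrays. Sex and genotype therefore cannot be told apart in the sorted cells. The replated arrays also differ from all sorted KO arrays in these genes, so sex joins the factors that cannot be told apart in each comparison of replated with sorted KO cells, and 2 of the cholesterol genes, Nsdhl and Ebp, are X-linked. Pmvk and Fdps lie on the chromosome of Tet2.

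The replated KO cells carried much more RNA of most cholesterol synthesis enzymes than any sorted progenitor. Against KO LSK, 17 of the 28 genes rose and 2 fell, while 10.8% of all genes tested rose and 14.2% fell. Against KO CMP, 17 rose and 1 fell (10.3% and 14.1% of all genes). Against KO GMP, 16 rose and 1 fell (10.2% and 15.2%). The 3 comparisons share the replated arrays and are given side by side. The median log2 difference of the 28 genes was 1.07, 1.22 and 1.05, and that of all genes was 0.01, -0.07 and -0.06. On 18 of the 28 genes both replated arrays lay above all 12 sorted arrays (12.9% of all genes), on 1 gene, Scap, both lay below (16.4%), and on 9 they overlapped. Those above comprise 5 of 7 early enzymes, 7 of 10 late enzymes, Insig1, Insig2, all 3 uptake and transport genes, and Abca1. In these bulk samples, more cells of a type and more RNA per cell cannot be told apart.

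**Figure D1:**
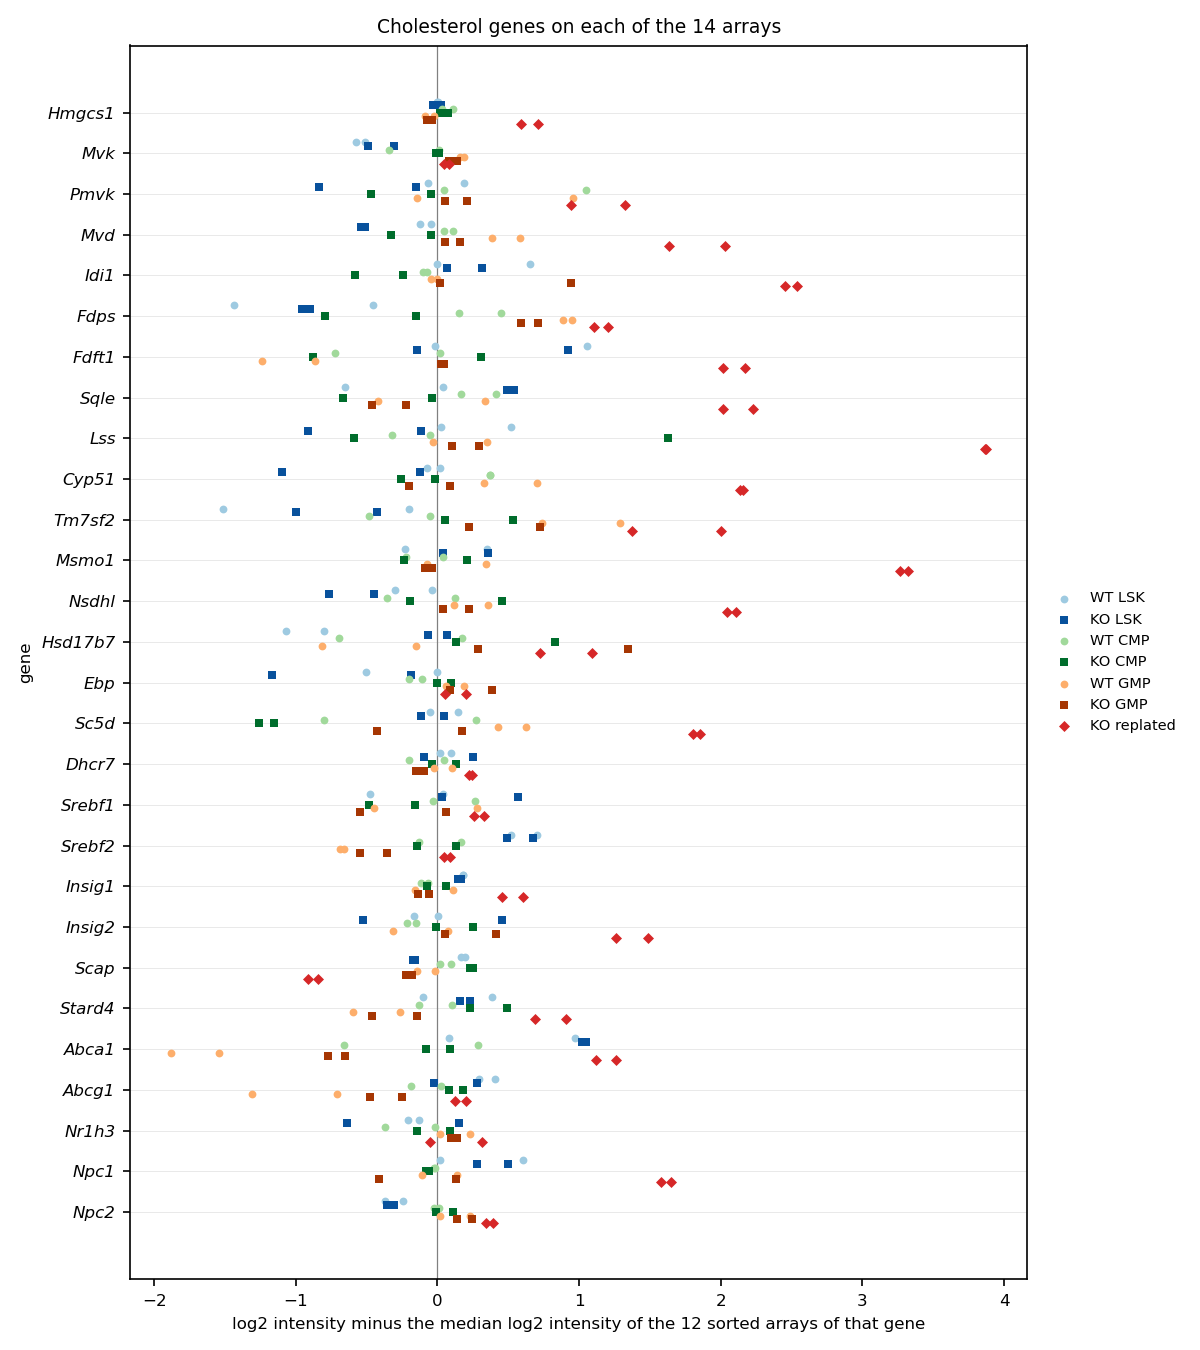
Log2 intensity of each of the 28 cholesterol genes on each of the 14 arrays, minus that gene's median over the 12 sorted arrays (horizontal axis, log2 units; 0 is the sorted median); each point is 1 array, and colour and shape give the group. The replated arrays (red diamonds) lie right of all other points for 18 genes and left of them for Scap.

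Sterol enzymes that move together are known to share letters bound by SREBP and by NF-Y, a factor that binds beside it. Promoters of 4 enzymes that rose against KO LSK and have a single window are shown. Hmgcs1 was picked because its window holds the SREBP letters searched for. Lss, Msmo1 and Cyp51 were picked for the largest rises against KO LSK among the rest. Each line gives the 250 bases before the RefSeq start of transcription (GRCm38.p6), read 5′ to 3′ on the gene's strand. Capitals mark the sterol regulatory element TCACNCCAC and the NF-Y box CCAAT, on either strand (ATTGG on the other), and no marked stretches overlap. The windows are chr13:119690101-119690350 on the plus strand for Hmgcs1, chr10:76531355-76531604 on the plus strand for Lss, chr8:64733579-64733828 on the minus strand for Msmo1 and chr5:4104698-4104947 on the minus strand for Cyp51.
Hmgcs1: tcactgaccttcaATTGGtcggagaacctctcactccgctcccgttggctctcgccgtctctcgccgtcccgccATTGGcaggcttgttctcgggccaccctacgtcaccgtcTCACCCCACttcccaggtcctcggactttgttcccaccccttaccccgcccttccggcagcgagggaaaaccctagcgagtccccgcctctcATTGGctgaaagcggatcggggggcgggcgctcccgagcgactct
Lss: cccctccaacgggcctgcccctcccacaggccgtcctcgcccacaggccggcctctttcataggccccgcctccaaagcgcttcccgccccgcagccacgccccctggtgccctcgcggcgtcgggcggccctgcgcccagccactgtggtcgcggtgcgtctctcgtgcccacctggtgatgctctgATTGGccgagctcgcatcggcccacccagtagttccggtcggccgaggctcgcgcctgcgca
Msmo1: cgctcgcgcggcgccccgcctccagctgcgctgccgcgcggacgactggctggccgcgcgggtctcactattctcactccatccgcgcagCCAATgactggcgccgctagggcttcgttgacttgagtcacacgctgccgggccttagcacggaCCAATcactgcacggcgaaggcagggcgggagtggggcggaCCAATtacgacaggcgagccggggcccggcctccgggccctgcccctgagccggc
Cyp51: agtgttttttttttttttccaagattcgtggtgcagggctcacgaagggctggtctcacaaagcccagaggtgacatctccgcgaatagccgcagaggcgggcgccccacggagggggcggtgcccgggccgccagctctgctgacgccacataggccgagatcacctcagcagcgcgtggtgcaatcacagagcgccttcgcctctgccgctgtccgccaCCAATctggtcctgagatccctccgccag
Hmgcs1 has 1 match to the strict element, 137 bases before the start, and 3 to the NF-Y box, Msmo1 has 3 NF-Y boxes, and Lss and Cyp51 have 1 each.

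A window of 300 bases (250 before to 50 after the start) was found for 22 of the 28 genes. The strict sterol element was in 1 of the 22, that of Hmgcs1, and in 1.44% of 26987 genes. The NF-Y box was in 19 of the 22 (86.4%) and in 41% of all genes. It was in 13 of 13 genes with a window that rose against KO LSK and in 6 of the 9 others. The E-box CACGTG, also searched because SREBP can bind such letters, was in 6 of 22 (27.3%) and in 8.09% of all genes, in 1 of the 13 and in 5 of the 9. A match is a description of the letters, and these sets were chosen partly on the arrays, so no test was run.

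The early enzymes rose in replated cells: 7 of 7 against KO LSK, 6 of 7 against KO CMP and 4 of 7 against KO GMP. Mvd, which decarboxylates mevalonate pyrophosphate, read 61.1 and 57.9 in WT LSK, 43.4 and 44.2 in KO LSK, 65 and 68 in WT CMP, 61 and 50.1 in KO CMP, 82.2 and 94.3 in WT GMP, 65.4 and 70.4 in KO GMP, and 258 and 196 in replated cells. It rose by 2.36 ± 0.16, 2.02 ± 0.16 and 1.73 ± 0.16 against KO LSK, CMP and GMP (adjusted p = 6.77e-06, 2.05e-05 and 5.56e-05). The lower replated array was 2.07 times the highest sorted one.

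Idi1, the isomerase that makes the second isoprenoid building block, read 804 and 1263 in WT LSK, 998 and 842 in KO LSK, 765 and 750 in WT CMP, 680 and 537 in KO CMP, 804 and 780 in WT GMP, 814 and 1545 in KO GMP, and 4415 and 4669 in replated cells. It rose by 2.31 ± 0.30, 2.91 ± 0.30 and 2.02 ± 0.30 (adjusted p = 0.000427, 0.000101 and 0.000894). One KO GMP array stood above the other sorted arrays and still below both replated ones.

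Fdps joins isoprenoid units into farnesyl pyrophosphate, the last step shared with the other isoprenoids. It read 127 and 250 in WT LSK, 184 and 177 in KO LSK, 468 and 381 in WT CMP, 309 and 198 in KO CMP, 634 and 664 in WT GMP, 517 and 560 in KO GMP, and 738 and 791 in replated cells. It rose against KO LSK and KO CMP by 2.08 ± 0.30 and 1.63 ± 0.30 (adjusted p = 0.000805 and 0.00343), and its difference from KO GMP was 0.51 ± 0.30 (adjusted p = 0.294). GMP were the sorted cells nearest to the replated level.

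Hmgcs1, the synthase that condenses acetyl-CoA units ahead of mevalonate, read 6503 and 6451 in WT LSK, 6344 and 6604 in KO LSK, 6637 and 6994 in WT CMP, 6549 and 6830 in KO CMP, 6367 and 6084 in WT GMP, 6322 and 6150 in KO GMP, and 10610 and 9739 in replated cells. The 12 sorted arrays lay within 1.15-fold of each other. The rises were 0.65 ± 0.11, 0.60 ± 0.11 and 0.70 ± 0.11 (1.57-, 1.52- and 1.63-fold, adjusted p = 0.00214, 0.00333 and 0.00127).

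Fdft1, squalene synthase, read 436 and 917 in WT LSK, 399 and 836 in KO LSK, 267 and 447 in WT CMP, 546 and 240 in KO CMP, 187 and 243 in WT GMP, 455 and 449 in KO GMP, and 1991 and 1790 in replated cells. The replated arrays lay above all others although the sorted pairs were wide. Its rises were 1.71 ± 0.50, 2.38 ± 0.50 and 2.06 ± 0.50 (adjusted p = 0.0336, 0.0069 and 0.0136). They missed the threshold against KO LSK without KO LSK 1, either KO GMP array or either replated array (highest adjusted p = 0.198), against KO CMP without KO CMP 2 (0.0536), and against KO GMP without any 1 of those 4 KO GMP and replated arrays (highest 0.0774).

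The 2 mevalonate kinases had the smallest or least steady differences of the early group. Mvk read 80.6 and 84.4 in WT LSK, 85.4 and 97 in KO LSK, 121 and 94.8 in WT CMP, 119 and 121 in KO CMP, 134 and 137 in WT GMP, 132 and 127 in KO GMP, and 124 and 127 in replated cells. It rose by 0.47 ± 0.14 against KO LSK (adjusted p = 0.0369), and the differences from KO CMP and KO GMP were 0.07 ± 0.14 and -0.05 ± 0.14. That rise missed the threshold without KO LSK 1 or any 1 of the 4 GMP and 2 replated arrays (highest adjusted p = 0.172), and with the replicate number as a block (0.0513). Pmvk, the phosphomevalonate kinase, read 156 and 186 in WT LSK, 147 and 91.6 in KO LSK, 338 and 169 in WT CMP, 118 and 158 in KO CMP, 148 and 318 in WT GMP, 189 and 170 in KO GMP, and 314 and 409 in replated cells. Single WT CMP and WT GMP arrays reached the replated range. Pmvk rose by 1.63 ± 0.42 against KO LSK and 1.39 ± 0.42 against KO CMP (adjusted p = 0.02 and 0.0407), and differed by 1.0 ± 0.42 from KO GMP (0.127). The first missed the threshold without KO LSK 2 or either replated array (highest adjusted p = 0.126). The second missed it without any 1 of 8 arrays, both of WT LSK, KO CMP, KO GMP and the replated cells (highest 0.203), and with the replicate block (0.0578).

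The late enzymes held the largest differences of the 28 genes. Against KO LSK and KO CMP 7 of 10 rose, and against KO GMP 6 of 10. Msmo1, the methylsterol oxidase that starts removal of the methyl groups at carbon C-4, read 221 and 329 in WT LSK, 331 and 265 in KO LSK, 266 and 222 in WT CMP, 298 and 220 in KO CMP, 246 and 328 in WT GMP, 243 and 252 in KO GMP, and 2583 and 2488 in replated cells. It rose by 3.10 ± 0.24, 3.31 ± 0.24 and 3.36 ± 0.24 (8.56-, 9.9- and 10.3-fold, adjusted p = 1.46e-05, 9.88e-06 and 8.25e-06). The sorted arrays spanned 1.51-fold, and the lower replated array was 7.51 times the highest of them.

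Nsdhl, the dehydrogenase of the same demethylation, read 208 and 250 in WT LSK, 151 and 188 in KO LSK, 279 and 200 in WT CMP, 224 and 351 in KO CMP, 278 and 329 in WT GMP, 263 and 299 in KO GMP, and 1057 and 1107 in replated cells. It rose by 2.68 ± 0.25, 1.95 ± 0.25 and 1.95 ± 0.25 (adjusted p = 4.49e-05, 0.000363 and 0.000352). Both replated arrays lay above every sorted array of either genotype. Nsdhl is X-linked, and the part of sex in its differences was not tested.

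Cyp51, the lanosterol demethylase, read 315 and 336 in WT LSK, 155 and 305 in KO LSK, 428 and 428 in WT CMP, 277 and 327 in KO CMP, 417 and 540 in WT GMP, 352 and 289 in KO GMP, and 1480 and 1459 in replated cells. It rose by 2.76 ± 0.28, 2.29 ± 0.28 and 2.20 ± 0.28 (adjusted p = 8.59e-05, 0.000291 and 0.000355). Both replated arrays were at least 2.7 times the highest sorted one.

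Sc5d, the sterol C5-desaturase, read 180 and 157 in WT LSK, 168 and 150 in KO LSK, 196 and 93.3 in WT CMP, 67.9 and 73 in KO CMP, 218 and 250 in WT GMP, 183 and 121 in KO GMP, and 567 and 586 in replated cells. It rose by 1.86 ± 0.31, 3.03 ± 0.31 and 1.96 ± 0.31 (adjusted p = 0.002, 0.000103 and 0.00141). KO CMP held its lowest arrays. With the mean of all its probe sets in place of the brightest, the difference from KO GMP was 0.58 and did not pass (adjusted p = 0.149). Another Sc5d probe set, above the floor on 13 arrays, did not show the rise. It read 21.3 to 124 on sorted and 66.4 to 76.9 on replated arrays. In a fit of all probe sets its differences were 0.75, 0.11 and -0.03 (adjusted p = 0.455, 0.949 and 0.987). The remaining probe set was above the floor on 1 array.

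Sqle, the squalene epoxidase that opens the late pathway, read 172 and 277 in WT LSK, 380 and 393 in KO LSK, 303 and 359 in WT CMP, 263 and 170 in KO CMP, 341 and 202 in WT GMP, 232 and 196 in KO GMP, and 1094 and 1267 in replated cells. It rose by 1.61 ± 0.31, 2.48 ± 0.31 and 2.47 ± 0.31 (adjusted p = 0.00447, 0.000355 and 0.000353). KO LSK were the sorted cells nearest to the replated level.

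Lss, which closes the epoxide into lanosterol, read 82.6 and 58.8 in WT LSK, 30.7 and 53.2 in KO LSK, 55.7 and 46.1 in WT CMP, 178 and 38.3 in KO CMP, 73.6 and 56.6 in WT GMP, 61.9 and 70.8 in KO GMP, and 847 and 842 in replated cells. It rose by 4.39 ± 0.58, 3.35 ± 0.58 and 3.67 ± 0.58 (20.9-, 10.2- and 12.8-fold, adjusted p = 0.000487, 0.00239 and 0.00131). One KO CMP array stood well above the other 11 sorted arrays. The difference from KO CMP ranged from 2.24 to 4.46 as single arrays were left out and passed each time. Its other probe sets rose too, by 5.55 and 2.04 against KO LSK.

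Tm7sf2, a sterol C14-reductase, read 34.4 and 85.7 in WT LSK, 73 and 49.2 in KO LSK, 94.7 and 70.5 in WT CMP, 102 and 142 in KO CMP, 164 and 240 in WT GMP, 115 and 162 in KO GMP, and 393 and 255 in replated cells. It rose by 2.40 ± 0.44 against KO LSK and 1.39 ± 0.44 against KO CMP (adjusted p = 0.00324 and 0.0471), and differed by 1.21 ± 0.44 from KO GMP (0.0773). The rise over KO CMP missed the threshold without any 1 of 12 of the 14 arrays, all but the WT LSK ones (highest adjusted p = 0.256), and with the replicate block (0.0594).

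The other 3 late enzymes did not pass in any of the 3 comparisons. The isomerase Ebp, X-linked, read 459 to 1346 on sorted and 1067 and 1187 on replated arrays, and its difference from KO LSK was 0.80 ± 0.29 (adjusted p = 0.0761). Dhcr7, the final reductase, read 3259 to 4474 and 4388 and 4434, and its difference from KO LSK was 0.15 (95% interval -0.19 to 0.50). Hsd17b7, a ketoreductase of the demethylation steps, read 184 to 981 and 824 and 638.

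**Figure D2:**
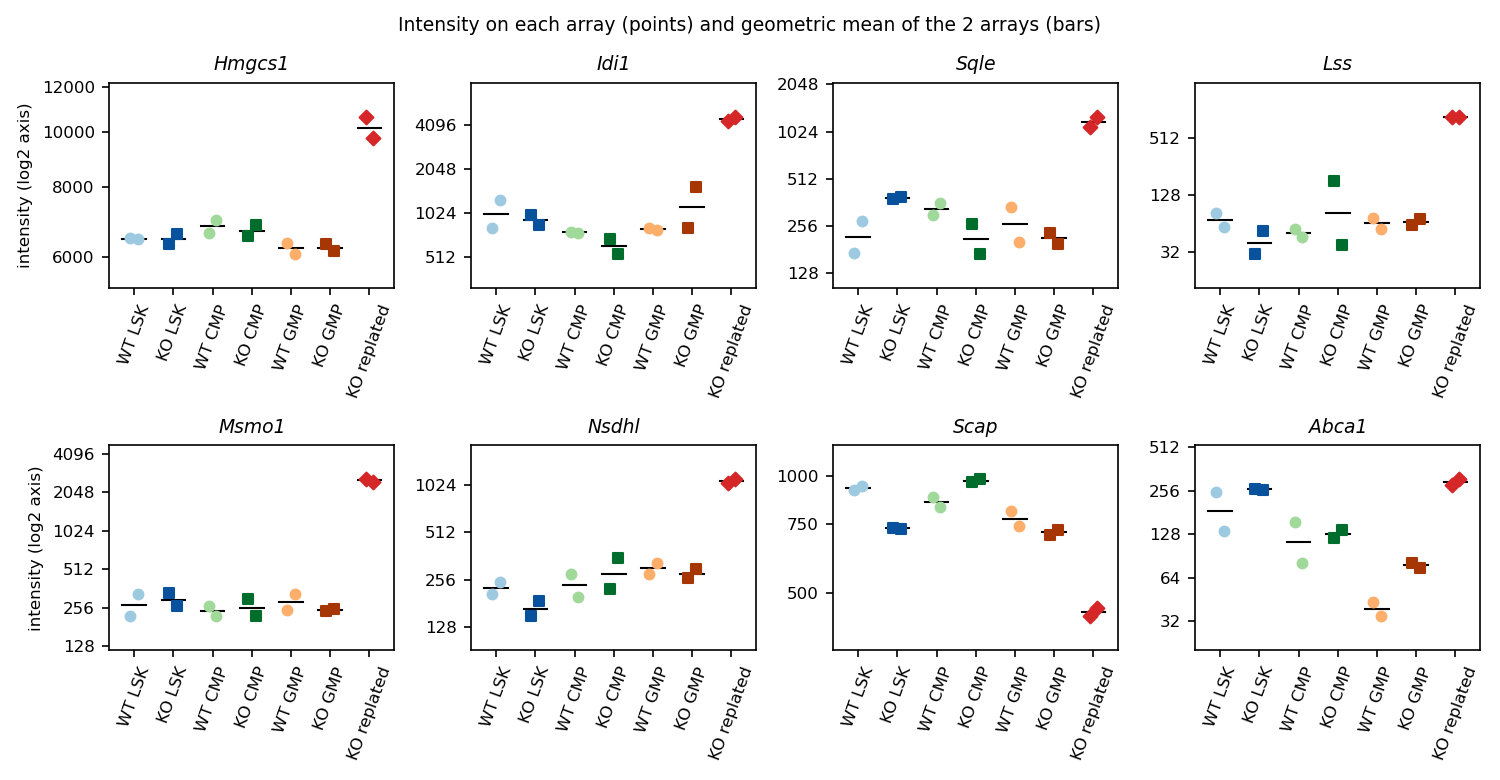
Intensity (vertical axis, log2 scale, a different range in each panel) of 8 cholesterol genes in the 7 groups; points are single arrays and bars the geometric mean of the 2 arrays. The 2 replated arrays stand above all sorted arrays in 7 panels and below them for Scap, and Abca1 is lowest in WT GMP.

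Of the 5 sensing and transcription genes, Insig2 rose and Scap fell in all 3 comparisons at their chosen probe sets, and Insig1 rose in 2. Scap, the escort of the SREBP factors, read 921 and 940 in WT LSK, 736 and 731 in KO LSK, 880 and 832 in WT CMP, 962 and 978 in KO CMP, 812 and 743 in WT GMP, 705 and 726 in KO GMP, and 437 and 459 in replated cells. It fell by 0.71 ± 0.11, 1.11 ± 0.11 and 0.67 ± 0.11 on the log2 scale (1.64-, 2.16- and 1.6-fold lower, adjusted p = 0.00124, 7.71e-05 and 0.00159). With the mean of its 2 probe sets, the second of which was above the floor on 6 arrays, the differences were -0.63, -0.75 and -0.86 and did not pass (adjusted p = 0.468, 0.386 and 0.317).

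Insig2, a retention factor, read 465 and 525 in WT LSK, 717 and 363 in KO LSK, 471 and 451 in WT CMP, 520 and 621 in KO CMP, 549 and 420 in WT GMP, 696 and 542 in KO GMP, and 1251 and 1466 in replated cells. It rose by 1.41 ± 0.29, 1.25 ± 0.29 and 1.14 ± 0.29 (adjusted p = 0.00654, 0.0122 and 0.0183). These missed the threshold without replated 2 (against KO LSK, 0.0534), without KO CMP 1 or replated 2 (against KO CMP, highest 0.0854), and without KO GMP 2 or either replated array (against KO GMP, highest 0.122). The other Insig2 probe sets, above the floor on all 14 arrays, did not pass in a fit of all probe sets. Against KO LSK, CMP and GMP, one differed by 0.55, 0.89 and 0.89 (adjusted p = 0.322, 0.106 and 0.106). It read 129 to 275 on sorted and 252 to 341 on replated arrays, with overlap. The next differed by 0.56, 0.86 and 0.66 (0.207, 0.057 and 0.135). Insig1, a relative of Insig2 and itself a target of SREBP, read 4815 and 4801 in WT LSK, 4772 and 4697 in KO LSK, 3912 and 4044 in WT CMP, 4420 and 4027 in KO CMP, 3808 and 4581 in WT GMP, 4071 and 3867 in KO GMP, and 5829 and 6446 in replated cells. The replated arrays were above the rest by at least 1.21-fold. Insig1 rose by 0.54 ± 0.13 against KO CMP and 0.63 ± 0.13 against KO GMP (adjusted p = 0.0141 and 0.00606), and its difference from KO LSK was 0.37 ± 0.13 (0.0674). The first missed the threshold without KO CMP 2 or replated 2 (highest 0.102), the second without replated 2 (0.0532).

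Srebf2 encodes the SREBP that drives cholesterol synthesis. At its chosen probe set it moved in opposite directions depending on the sorted cells it is set against. It read 4068 and 3582 in WT LSK, 3518 and 4004 in KO LSK, 2284 and 2805 in WT CMP, 2744 and 2268 in KO CMP, 1587 and 1554 in WT GMP, 1718 and 1960 in KO GMP, and 2660 and 2591 in replated cells, whose level was near that of CMP. It fell by 0.52 ± 0.16 against KO LSK and rose by 0.52 ± 0.16 against KO GMP (adjusted p = 0.0414 and 0.0405), with 0.07 ± 0.16 against KO CMP. Both calls were lost with the replicate block (0.0568 and 0.0559). They were also lost without any 1 of the 4 GMP and 2 replated arrays, and the first without either KO LSK array (highest adjusted p = 0.17 and 0.213). The fall did not hold at its second probe set, which differed from KO LSK by 0.22 in a fit of all probe sets (adjusted p = 0.532). In that fit the second probe set rose by 0.87 against KO CMP and 1.13 against KO GMP (0.0126 and 0.00301). Srebf1, whose products mainly drive fatty acid synthesis, read 242 to 523 on sorted and 423 and 444 on replated arrays and did not pass in any of the 3 comparisons.

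All 3 uptake and transport genes had both replated arrays above the sorted ones. Npc1, which moves cholesterol out of lysosomes, read 280 and 186 in WT LSK, 260 and 223 in KO LSK, 182 and 181 in WT CMP, 174 and 177 in KO CMP, 171 and 203 in WT GMP, 202 and 138 in KO GMP, and 577 and 550 in replated cells. It rose by 1.23 ± 0.23, 1.69 ± 0.23 and 1.75 ± 0.23 (adjusted p = 0.00354, 0.00056 and 0.000418). The lower replated array was 1.97 times the highest sorted one.

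Npc2, its soluble partner in the lysosome, read 3805 and 4151 in WT LSK, 3975 and 3837 in KO LSK, 4957 and 4838 in WT CMP, 4867 and 5292 in KO CMP, 4968 and 5762 in WT GMP, 5412 and 5807 in KO GMP, and 6234 and 6448 in replated cells. It rose by 0.70 ± 0.12 against KO LSK (adjusted p = 0.00274), and the differences from KO CMP and KO GMP were 0.32 ± 0.12 and 0.18 ± 0.12 (0.0994 and 0.388). With the mean of its probe sets the difference from KO LSK was 0.49 (0.0848). In a fit of all probe sets, another Npc2 probe set rose by 1.7, 2.19 and 1.67 against KO LSK, CMP and GMP (adjusted p = 0.000642, 0.000141 and 0.000708). A further Npc2 probe set rose by 0.83 against KO LSK (0.00143) and did not pass against KO CMP and KO GMP (0.0514 and 0.593). The remaining Npc2 probe set was above the floor on 1 array. Stard4, a carrier of free cholesterol in the cytosol, read 2969 and 2117 in WT LSK, 2542 and 2667 in KO LSK, 2080 and 2441 in WT CMP, 2661 and 3195 in KO CMP, 1506 and 1891 in WT GMP, 2059 and 1650 in KO GMP, and 3665 and 4259 in replated cells. It rose by 1.10 ± 0.21 against KO GMP (adjusted p = 0.00387). Its differences from KO LSK and KO CMP were 0.60 ± 0.21 and 0.44 ± 0.21 (0.0678 and 0.184). In the fit of all probe sets, another Stard4 probe set rose by 1, 1.49 and 1.8 against KO LSK, CMP and GMP (adjusted p = 0.00251, 0.000246 and 6.97e-05). The remaining Stard4 probe set differed by 1.43, 1.19 and 0.54 and passed against KO LSK alone (0.0394, 0.0803 and 0.473).

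Neither efflux pump passed against KO LSK. Abca1, which loads cholesterol onto lipid-poor apolipoprotein, read 250 and 135 in WT LSK, 264 and 259 in KO LSK, 156 and 80.8 in WT CMP, 121 and 136 in KO CMP, 43.8 and 34.7 in WT GMP, 81.2 and 74.7 in KO GMP, and 278 and 306 in replated cells. It rose by 1.19 ± 0.33 against KO CMP and 1.90 ± 0.33 against KO GMP (adjusted p = 0.029 and 0.00242), and differed from KO LSK by 0.16 (95% interval -0.60 to 0.91). The rise over KO CMP missed the threshold without any 1 of the KO CMP and replated arrays (highest adjusted p = 0.14). With the mean of its 3 probe sets, the other 2 of which were above the floor on 2 and 0 arrays, the differences from KO CMP and KO GMP were 0.72 and 0.84 (0.173 and 0.112).

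Abcg1, which exports cholesterol to mature lipoprotein, read 4794 and 4413 in WT LSK, 3552 and 4384 in KO LSK, 3174 and 3665 in WT CMP, 4082 and 3819 in KO CMP, 1456 and 2203 in WT GMP, 3035 and 2596 in KO GMP, and 3942 and 4156 in replated cells. Its differences were 0.04 ± 0.20, 0.04 ± 0.20 and 0.53 ± 0.20, and none passed. Nr1h3, an LXR receptor, read 16.2 to 29.5 on sorted and 31.4 and 24.3 on replated arrays, near the floor. Beyond the chosen probe sets, the genes that passed against KO LSK had 25 other probe sets: 13 passed in the same direction, 8 had that direction without passing, 2 had the opposite direction without passing, and 2 were below the floor throughout. Fitted on the 4 arrays of each comparison alone, 3551, 4437 and 5865 of all 18194 genes passed against KO LSK, CMP and GMP. Of the 28 genes, 15, 16 and 19 passed. Calls lost in that fit were those of Hmgcs1, Mvk, Fdft1, Srebf2 and Insig2 against KO LSK (adjusted p = 0.0583, 0.137, 0.0559, 0.111 and 0.077), of Hmgcs1 and Insig1 against KO CMP (0.05 and 0.0762), and of Srebf2 against KO GMP (0.0501).

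Markers of other cell types moved with these differences. The mast cell and basophil list (11 of 12 genes measured) summed to 7192 to 11191 on sorted and 83413 to 85234 on replated arrays, and 11, 9 and 9 of the 11 genes rose against KO LSK, CMP and GMP, while 1 fell against KO GMP. Of the granulocyte-monocyte list, 4 of 6 measured genes (Mpo, Elane, Prtn3 and Ctsg) were at or below the floor on both replated arrays, and the sum was 5478 to 5659 there against 14584 to 53045 on sorted arrays. Ms4a3 of this list (146 and 165 on replated arrays) lay below all sorted arrays. Fcgr3 (5454 and 5258) lay above them and made up most of the replated sum. The monocyte list summed to 246 to 317 against 3900 to 6706, with 7 of 10 genes, Csf1r among them, at or below the floor. The B cell list summed to 141 to 216 against 774 to 8707, the erythroid list to 5136 to 5421 against 3962 to 9782, and the megakaryocyte list to 3749 to 3810 against 1373 to 3557. In the erythroid list, Gata1 (4149 and 4075) and Epor lay above all sorted arrays on both replated ones. Klf1, Ermap, Car1 (24.4 and 23.3) and Tfrc lay below them. In the megakaryocyte list, Itga2b (1696 and 1892) and Vwf (1678 and 1563) lay above, Pf4 (143 and 137) and Gp1bb below, and Gp9 within the sorted range. The stem and progenitor list summed to 12285 to 14206, with Procr at or below the floor as in WT GMP, against 5846 to 17622 on sorted arrays. In this list, Kit (4913 and 5568) lay above all sorted arrays on both replated ones, and Hlf (31.6 and 42.1) lay below them. Cd34, Mecom, Meis1, Procr and Slamf1 lay within the sorted range. The cycling list (9 genes) summed to 10571 to 10694 against 18455 to 21702, and 6, 6 and 7 of its genes fell. The part of these cell types and of cycling in the cholesterol differences was not tested.

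Genes next to the pathway were read from 5 further lists, 46 of whose 50 genes were measured. In replated cells 14 rose and 5 fell against KO LSK, 16 and 6 against KO CMP, and 15 and 6 against KO GMP. Of all genes tested, 10.8%, 10.3% and 10.2% rose and 14.2%, 14.1% and 15.2% fell in these comparisons. In the fatty acid synthesis list, 7 of 11 rose and 1 fell against KO LSK, and 8 rose and 0 fell against KO CMP and against KO GMP. Fasn, the fatty acid synthase, read 191 to 278 on the sorted arrays and 623 and 644 on the replated ones, and rose by 1.30 ± 0.17, 1.51 ± 0.17 and 1.54 ± 0.17 against KO LSK, CMP and GMP (adjusted p = 0.000469, 0.000178 and 0.000148). Me1, the malic enzyme that supplies NADPH for lipid synthesis, read 7.03 to 47.3 and 563 and 659. It rose 21.2-fold over KO LSK (adjusted p = 0.000336). It was at or below the floor on both arrays of KO CMP and of KO GMP, and was at least 24.2-fold and 23.8-fold higher in replated cells, taking the mean floor of those arrays as the lower level. Aacs, which activates acetoacetate for lipid synthesis, rose 4.15-, 3.11- and 3.03-fold. Acss2 rose 2.78-, 3.52- and 12.6-fold. Scd1 read 18 to 577 on the sorted arrays and 5328 and 5648 on the replated ones, and passed against KO LSK, CMP and GMP. Elovl6, a fatty acid elongase, fell 2.42-fold against KO LSK.

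**Figure D3:**
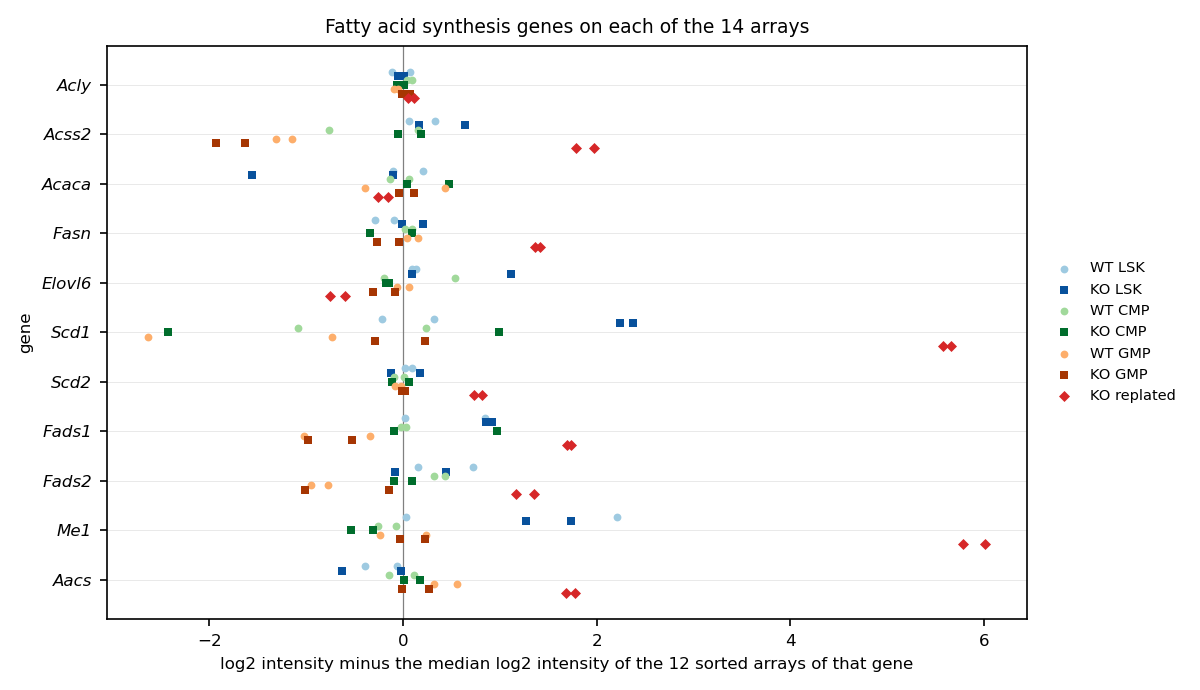
Log2 intensity of the 11 fatty acid synthesis genes on each of the 14 arrays, minus that gene's median over the 12 sorted arrays (horizontal axis, log2 units); each point is 1 array. The replated arrays (red diamonds) of Fasn, Me1, Acss2, Scd1, Scd2, Fads1, Fads2 and Aacs lie right of every sorted array, and those of Elovl6 lie left.

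The other 4 lists moved less in one direction. Beside their counts stand the shares of all genes, of which 10.2% to 10.8% rose and 14.1% to 15.2% fell. Of the isoprenoid branch genes, 1, 1 and 1 of 10 rose and 2, 3 and 3 fell against KO LSK, CMP and GMP. Fntb, a subunit of protein farnesyltransferase, fell 3.62-, 3.47- and 3.36-fold, and Ggps1, which makes geranylgeranyl pyrophosphate, rose 1.85- and 1.9-fold over KO CMP and KO GMP. Of the SREBP processing genes, 2, 0 and 0 of 8 rose and 1 fell each time, which was Ubxn8. Of the other sterol genes, 3, 4 and 4 of 11 rose and 0, 1 and 1 fell, with Tmem97 the one that fell and Gramd1b, a carrier of cholesterol to the endoplasmic reticulum, 3.57-, 6.85- and 4.6-fold higher. Of the LXR partners and targets, 1, 3 and 2 of 6 rose and 1 fell each time. Lpcat3, a phospholipid acyltransferase known as an LXR target, rose 5.83-, 5.37- and 3.42-fold (adjusted p = 0.000144, 0.000201 and 0.00127).

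Among the sorted cells, the step from LSK to GMP moved a few of the 28 genes. At the chosen probe sets, Srebf2 and Abca1 fell and Fdps rose in both genotypes. In WT, 3 rose and 3 fell (3.22% and 3.87% of all genes tested), and in KO, 2 rose and 2 fell (3.42% and 3.76%). The median log2 difference of the 28 was 0.10 in WT and 0.12 in KO, and that of all genes was 0.07 in both. Srebf2 fell 2.43-fold in WT and 2.05-fold in KO (-1.28 ± 0.16 and -1.03 ± 0.16, adjusted p = 0.00168 and 0.00608). Abca1 fell 4.72-fold in WT and 3.36-fold in KO (-2.24 ± 0.33 and -1.75 ± 0.33, adjusted p = 0.00428 and 0.0151). Fdps rose 3.64-fold in WT and 2.98-fold in KO (adjusted p = 0.00622 and 0.015). For all 3 genes, the 4 GMP arrays did not overlap the 4 LSK arrays.

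Abcg1 fell 2.57-fold in WT (-1.36 ± 0.20, adjusted p = 0.00433), and its KO difference was -0.49 ± 0.20 (0.21). The difference between these steps was 0.87 ± 0.29 and did not pass (adjusted p = 0.658). In WT, Mvk rose 1.64-fold and Tm7sf2 3.65-fold (adjusted p = 0.0156 and 0.0353), and their KO differences were 0.51 ± 0.14 and 1.19 ± 0.44 (0.0626 and 0.161). In KO, Npc2 rose 1.44-fold (0.52 ± 0.12, adjusted p = 0.038), and its WT difference was 0.43 ± 0.12 (0.0779). In all, 7 genes had the 4 GMP arrays above the 4 LSK arrays (11.3% of all genes) and 5 had them below (7.89%). The first are Mvk, Mvd, Fdps, Tm7sf2, Nsdhl, Ebp and Npc2, the second Srebf2, Insig1, Stard4, Abca1 and Abcg1.

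These calls rest on a spread shared by all 14 arrays. Fitted on their own 4 arrays, 189 of all 18194 genes passed in WT (2887 at unadjusted p below 0.05) and 200 in KO. Of the 28 genes, 0 passed in WT (8 at unadjusted p below 0.05) and 2 in KO. The KO count was 0 without KO GMP 1, 1 without KO GMP 2 and 2 without KO LSK 2. Mvk was lost without WT LSK 1 or either WT GMP array (highest adjusted p = 0.0892), Tm7sf2 without any 1 of 9 arrays (0.204) and Npc2 without any 1 of 8 (0.202). In KO, Srebf2 was lost without KO GMP 1 (0.052), Abca1 without any 1 of its 4 arrays and Fdps without KO LSK 2 or either KO GMP array (0.0926 for both). With the mean of all probe sets, Npc2 in KO turned to -0.07 (adjusted p = 0.876), Abca1 was -0.96 in WT and -0.87 in KO (0.136 and 0.176), Abcg1 in WT was -1.03 (0.0645) and Fdps in KO was 0.79 (0.0551). These means take in dim probe sets: an Npc2 one above the floor on 1 array, the other Fdps one on 0, and those of Abca1 on 2 and 0. In a fit of all probe sets, another Npc2 probe set rose by 0.7 in KO (adjusted p = 0.0163), and a further one differed by 0.03 (0.962). Markers moved along this step too: the granulocyte-monocyte list summed to 14584 to 18008 on LSK and 49535 to 53045 on GMP arrays, and the stem list to 14102 to 17622 and 5846 to 7205. Their part in the cholesterol differences was not tested.

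**Figure D4:**
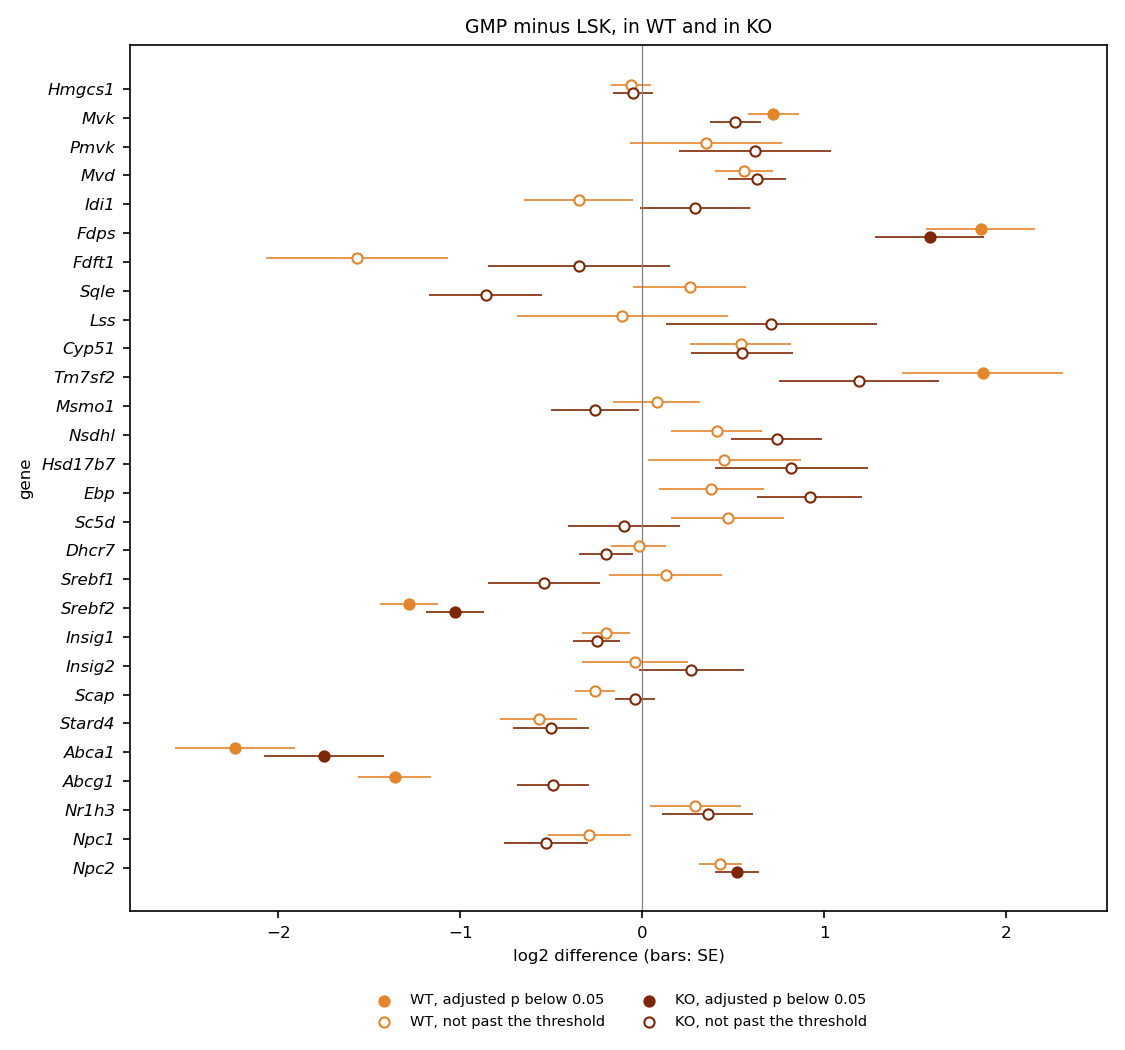
Log2 difference of GMP minus LSK (horizontal axis) for each of the 28 genes in WT and in KO, with bars of 1 SE, from 2 arrays a group; filled points have an adjusted p below 0.05. Srebf2 and Abca1 are filled on the lower side and Fdps on the higher side in both genotypes.

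The single steps through CMP gave no call by limma. Of the 28 genes, 0 passed from LSK to CMP in WT (1.53% of all genes) and in KO (1.15%), and 0 from CMP to GMP in WT (0.89%) and in KO (0.769%). At an unadjusted p below 0.05 there were 4, 10, 7 and 7. From WT LSK to CMP the smallest adjusted p was that of Fdps (difference 1.24, 0.0939), and from WT CMP to GMP that of Abca1 (-1.53, 0.0965). One gene passed from WT LSK to CMP without WT LSK 2, and 1 from KO LSK to CMP without any 1 of KO LSK 1, WT CMP 1, WT CMP 2 and KO CMP 2.

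Loss of Tet2 in the sorted cells moved none of the 28 genes past the threshold in limma's test. Averaged over LSK, CMP and GMP, 0 passed (0.308% of all genes), with 5 at an unadjusted p below 0.05. Within LSK 0 passed (0.264%, 3 unadjusted), within CMP 0 (0.121%, 2) and within GMP 0 (0.0934%, 4). Between populations, the difference of the KO effect passed for 0 genes in each of the 3 comparisons (0.022%, 0.0055% and 0% of all genes), with 2, 2 and 0 unadjusted. The median averaged difference of the 28 was 0.00, and that of all genes 0.03.

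The 4 genes with the smallest p did not pass either. Hsd17b7 read 184 and 222 in WT LSK against 368 and 405 in KO LSK, 435 and 238 against 685 and 422 in CMP, and 219 and 348 against 981 and 472 in GMP. Its averaged difference was 0.99 ± 0.24 (95% interval 0.45 to 1.54, adjusted p = 0.221), and the probe set is of a kind that can bind other transcripts. Mvd, whose arrays are given above, lay lower in KO in each population with no overlap, at -0.36 ± 0.10 (interval -0.58 to -0.15, adjusted p = 0.255). Cyp51 did so too, at -0.56 ± 0.16 (-0.92 to -0.19, 0.308), and passed without KO LSK 2 (-0.72, adjusted p = 0.027), which leaves KO LSK to its lower array, while without KO LSK 1, the lowest sorted array, the difference was -0.39 (0.217). At the chosen probe sets, Mvd and Cyp51 are the 2 genes with KO below WT in every population (0.918% of all genes), and 0 had KO above (1.29%). In a fit of all probe sets, the other probe sets of Cyp51 had averaged differences of 0.12 and 0.01 (adjusted p = 0.877 and 0.997). That of Mvd had -0.24 (0.595). Sc5d differed by -0.56 ± 0.18 (-0.97 to -0.15, 0.371).

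Lss and Msmo1 had the largest rises in replated cells in all 3 comparisons, and the intervals of their averaged KO difference were -0.77 to 0.74 and -0.31 to 0.32. Those of Hmgcs1 and Srebf2 were narrower, -0.15 to 0.14 and -0.15 to 0.27. Within GMP, Abca1 differed by 1.0 ± 0.33 and Abcg1 by 0.65 ± 0.20 (adjusted p = 1 and 0.932). Both KO GMP arrays lay above both WT GMP arrays for each pump. This is not particular to the pumps. The KO and WT GMP arrays also did not overlap, in either direction, for Mvk, Mvd, Idi1, Fdps, Fdft1, Cyp51, Tm7sf2, Hsd17b7, Sc5d, Dhcr7, Srebf2 and Scap. The share of all genes was not counted for this rule. The B cell list summed to 5187 to 8707 in WT LSK and 1851 to 2376 in KO LSK, and its part in the LSK values was not tested.

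**Figure D5:**
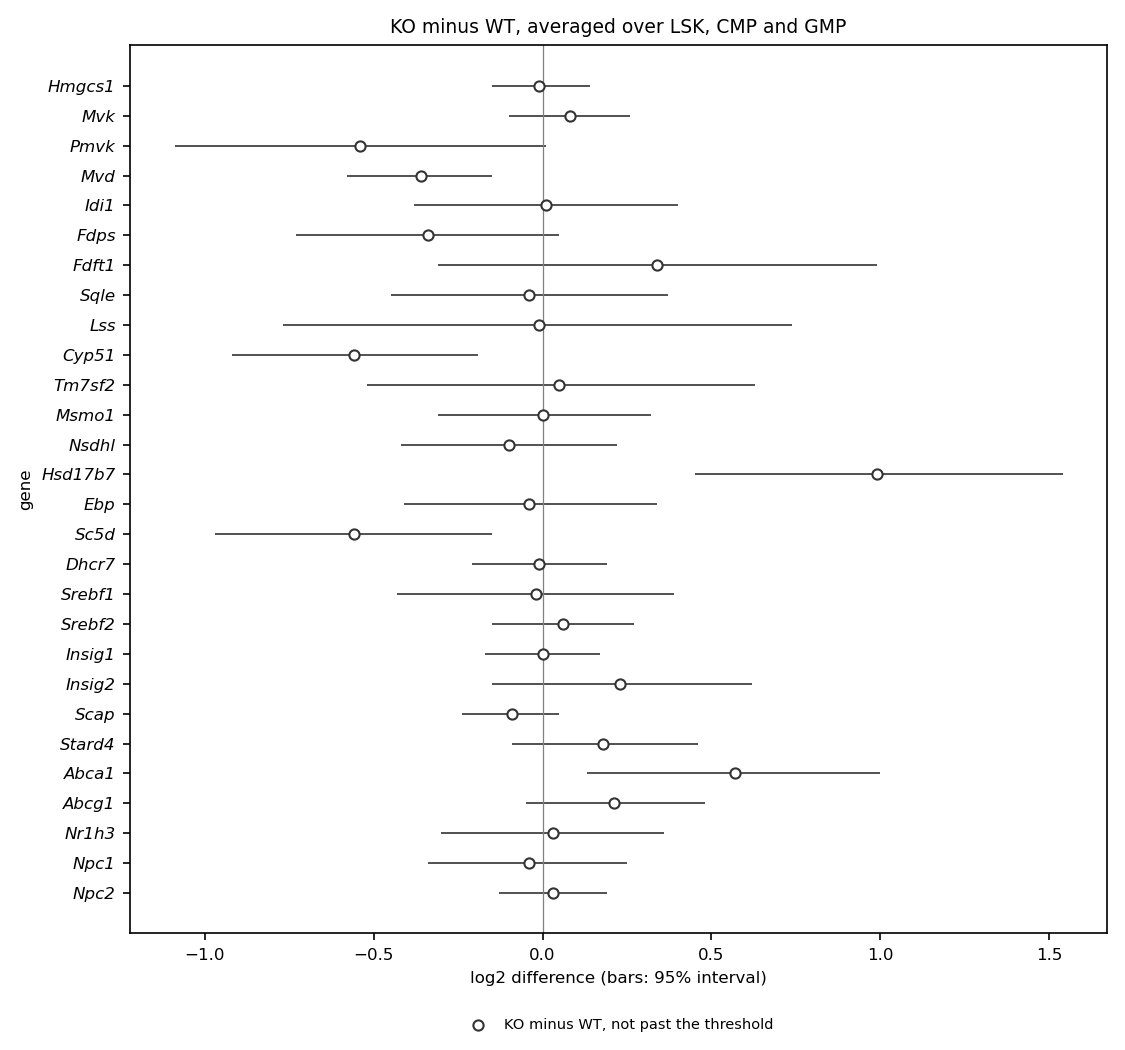
Log2 difference of KO minus WT averaged over LSK, CMP and GMP (horizontal axis) for the 28 genes, with 95% intervals from the model of 14 arrays; none had an adjusted p below 0.05. Hsd17b7 lies farthest to the right, at 0.99.

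Over all 7 groups together, 23 of the 28 genes differed in limma's F test (26.1% of all genes tested). The count was 13 without replated 1 and 14 without replated 2. The 5 that did not pass were Pmvk, Ebp, Dhcr7, Srebf1 and Nr1h3.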

How the data were processed

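The deposited values are intensities per probe set on a linear scale, and the submitters' processing notes name RMA, with no version, as the method. It normalizes between arrays, so a shift of all genes is not visible. Array medians lay between 31.16 and 32.98. No counts exist, and 2 arrays a group limit the precision. Of 45101 probe sets, 34958 named 1 gene. Log2 values of 18194 genes, each at its brightest probe set, entered 1 limma model (version 3.58.1, R 4.3.3) with 7 group means on 14 arrays (7 residual and 2.19 prior degrees of freedom), with moderated tests adjusted by Benjamini-Hochberg. The script was tested on simulated data. The floor is the highest of 27 bacterial control probe sets on each array. The members and lists were chosen with earlier results of these data known. Values on every array were given for genes that passed in at least 1 comparison and for the 4 of smallest p in the averaged knockout comparison. Other lists were given as counts, with some of the genes that passed named, not always those of smallest p. Alternatives were other normalization, probe set and model choices, a replicate block and each array left out. Promoter windows are from RefSeq (GRCm38.p6).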

Additional observations from a re-analysis of the deposited data

How the results depend on the processing

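Of 610 values of single genes under alternatives other than leaving out an array (68 results), 573 kept their direction and side of the threshold, 36 lost the call and 1 reversed: Npc2, KO GMP minus KO LSK, at -0.07 with the mean of all probe sets. That mean takes in an Npc2 probe set above the floor on 1 array. Leaving out each array, 856 of 952 were kept, 95 lost the call and 1 gained it. The counts of genes passing then ranged from 14 to 20, 13 to 17 and 13 to 18 for replated cells against KO LSK, CMP and GMP, 4 to 6 for WT GMP minus LSK, 0 to 4 for KO GMP minus LSK, 0 to 1 for WT and for KO CMP minus LSK and for the averaged KO comparison, and 13 to 22 over all groups. Fitted on the compared arrays only, 0 passed for WT GMP minus LSK (189 of all genes) and 2 for KO GMP minus LSK (200 of all genes). WT GMP minus CMP gave 2 with trend and robust settings. KO CMP minus LSK gave 1 with the mean of all probe sets, with probe sets ending in _s_at, _x_at or _a_at left out and with an offset of 16, which gave 1 for KO GMP minus CMP too. The cause was not tested. The replicate numbers did not pair the samples: over 21 pairs of groups, the correlations of same-numbered deviations lay between -0.1 and 0.1 after rounding, with 1 over 0.1. With the replicate number as a block, 17, 16 and 16 genes passed in the replated comparisons, 6 and 4 for GMP minus LSK in WT and KO, 0 in the other comparisons of 2 groups and 21 over all groups. Of all genes, 24.4%, 23.9% and 24.8% passed in the replated comparisons with the block. For GMP minus LSK, 6.75% passed in WT and 6.47% in KO. Genes near the floor, such as Nr1h3, have little range downwards.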
